A study of Mus musculus with 20 samples.

Results

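The interaction of diet with fraction was examined in control mice, that is, whether a high-fat diet (HFD) changed the RNA on tagged ribosomes in a way that it did not change the RNA of the whole tissue. It used 14 of the 20 libraries of the study, chosen by their labels: 4 HFD pulldowns and 4 HFD inputs, and 3 pulldowns and 3 inputs from mice on normal chow diet (NCD). For each gene the log2 difference between HFD and NCD in the input was subtracted from that in the pulldown, and this difference of differences is called the interaction. Of 44674 genes in the count table, 13568 were tested, and 5439 of these had an interaction with an adjusted P below 0.05 by edgeR's quasi-likelihood test with Benjamini–Hochberg adjustment, which all adjusted P values below refer to.

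All mice carried 1 copy of a Rosa26-L10-EGFP transgene, as the labels spell it, which the methods describe as ribosomal protein L10a fused to GFP and made once Cre is present, and received AAV-Dio2-Cre in the lateral ventricle at 12 weeks of age. The Dio2 promoter drives Cre, so cells that use this promoter carry tagged ribosomes. The mediobasal hypothalamus was taken 4 weeks later, at 16 weeks of age, and tissue of several mice was pooled for each replicate. Male and female mice were injected. Controls were IR wt/wt, with both alleles of the insulin receptor intact. HFD held 60% of calories as fat and was given from 4 weeks of age, after weaning, and NCD held 9%. The length of HFD feeding is given as 8 weeks in the series description and as 12 weeks in the study's text. Another 3 pools on NCD were from IRΔTan mice (IR fl/fl, lacking the insulin receptor where Cre acts). These 6 libraries gave a separate measure of how strongly each gene is enriched by the pulldown.

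Tanycytes are elongated glial cells that line the floor and lower walls of the third ventricle. They contact the cerebrospinal fluid on one side and reach blood vessels and neurons of the arcuate nucleus on the other, take part in thyroid hormone activation, glucose sensing and hormone transport, and are known to respond to diet. A pulldown of tagged ribosomes recovers the mRNA bound by ribosomes of the cells that express the tag, together with carry-over RNA of other cells, while the input holds RNA of every cell type in the tissue. An interaction in such data therefore compares 2 mixtures of RNA, and in bulk tissue fewer cells of a type and less RNA per cell cannot be told apart.

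The libraries held 29469000 to 34715000 counts in HFD pulldowns and 42868000 to 48626000 in NCD pulldowns, and 33234000 to 59385000 in HFD inputs and 40492000 to 45845000 in NCD inputs. All 20 tanycyte markers of a fixed list had counts in every pulldown. The summed level of the 19 that were tested was 1050 to 1970 CPM (counts scaled to a common library total) in HFD pulldowns, against 2150 to 2500 CPM in NCD pulldowns, with 514 to 584 CPM in HFD inputs and 575 to 624 CPM in NCD inputs. The 19 neuron markers went the other way in the pulldowns, with a sum of 12300 to 16000 CPM on HFD against 6810 to 8270 CPM on NCD, while their inputs held 20000 to 21000 CPM on HFD and 20400 to 21600 CPM on NCD. Oligodendrocyte markers summed to 924 to 2150 CPM in HFD pulldowns against 642 to 1180 CPM in NCD pulldowns, and the 11 microglia markers tested to 117 to 159 CPM against 65 to 70 CPM. Astrocyte markers were at 2810 to 3630 CPM against 2810 to 2930 CPM, and the 5 endothelial markers tested at 7.14 to 15.6 CPM against 12.3 to 27 CPM. Choroid plexus and blood markers were at 161 to 920 CPM against 194 to 257 CPM, and pituitary markers at 10.4 to 21.7 CPM against 18.8 to 30.6 CPM. The part of these marker levels in the results was not tested. HFD pool 2 stood apart, with the weakest enrichment of all pools: across 2122 genes enriched in IRΔTan pulldowns, its median log2 ratio of pulldown to input was 0.57, against 0.92 to 1.14 in the other HFD pools and 1.51 to 1.64 in NCD pools.

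The interaction was called for 40.1% of the genes tested. It was above 0 for 2953 genes (21.8%) and below 0 for 2486 genes (18.3%). Counts of list members above or below 0 are to be read beside these shares. Diet changed 7066 genes in the pulldown (52.1%), of which 3486 rose (25.7%) and 3580 fell (26.4%) on HFD, and 1602 genes in the input (11.8%), of which 867 rose (6.39%) and 735 fell (5.42%). The contrast between the fractions depended on the fit: with a variance per group in limma voom there were 5519 calls in the pulldown and 4729 in the input, and with the fractions fitted alone 5232 and 4245. Without NCD pool 3 there were 632 calls in the input. Scaling by library totals over the genes tested, in place of TMM, gave a median interaction of -0.13 over all genes, where TMM gave -0.02. It gave 2336 calls above and 3079 below 0, so directions here are relative to the TMM scale. Without HFD pool 3 there were 1879 calls above and 2392 below 0.

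A gene was called confined to the pulldown if its interaction and its pulldown change passed the test, the pulldown change was at least 0.5 on the log2 scale, and the 95% interval of its input change lay within -0.5 to 0.5. There were 1815 such genes, of which 1187 rose (8.75% of genes tested) and 628 fell (4.63%). With library totals these counts were 908 and 917. A gene was called opposite if it passed the test in both fractions with opposite signs, which held for 446 genes: 142 rose in the pulldown and fell in the input (1.05%), and 304 fell in the pulldown and rose in the input (2.24%). The other calls were 137 genes confined to the input, of which 97 rose and 40 fell, 46 that moved the same way in both fractions by unequal amounts, and 2995 that no class held. Genes just inside the bound on the input were Asb3, Phpt1 and Smc1a, with interval limits reaching 0.4997, 0.4996 and 0.4995, and those just outside it were Septin6, 1110032A03Rik and Plxna2, at 0.5001, 0.5002 and 0.5003.

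**Figure D1:**
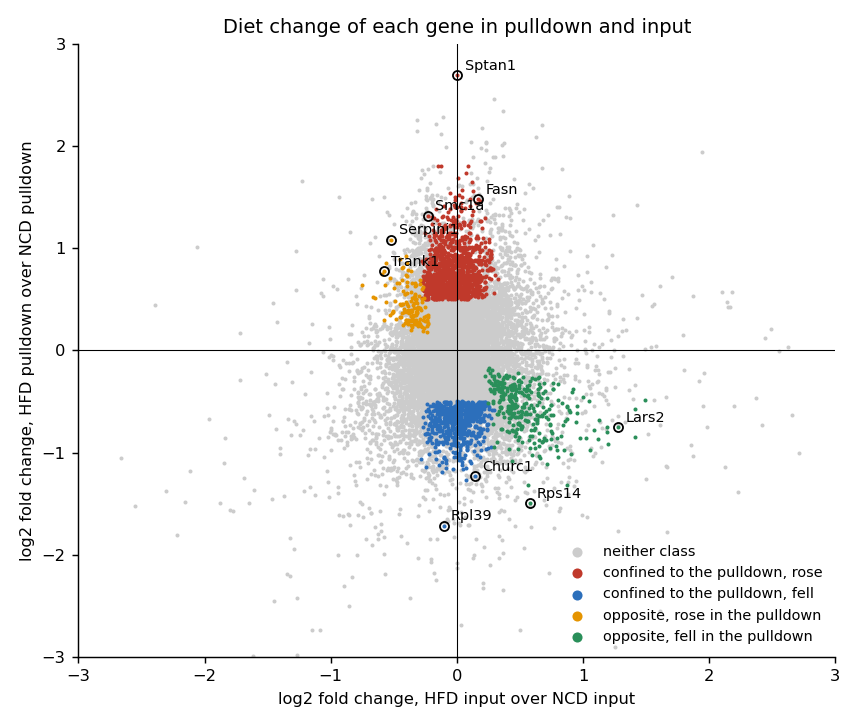
Log2 diet change (HFD over NCD) in the pulldown against that in the input, 1 point per gene, coloured by class; 19 genes beyond 3 on either axis are not drawn. Genes confined to the pulldown (1187 that rose, 628 that fell) lie along the axis of no input change, and genes opposite in the fractions (142 and 304) lie in the upper left and lower right corners of the plot.

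These classes differed in how firmly they held when each of the 7 pools was left out in turn. Of the 1187 genes that rose only in the pulldown, 627 kept their class in all 7 fits, and of the 628 that fell there 249 did. Of 304 opposite genes that fell in the pulldown 78 kept their class, and of 142 that rose there 6 did. That last class rested on HFD pool 3, without which it held 6 genes in all, all of them among the 142.

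The interaction ran with the enrichment of a gene by the pulldown, measured in the IRΔTan libraries that share no sample with the controls. Of the 2122 genes enriched there at least 2-fold, 2 had an interaction above 0 (0.0943%) and 860 below 0 (40.5%), with a median of -0.73. Of the 1498 genes depleted there to the same degree, 765 were above 0 (51.1%) and 28 below 0 (1.87%), with a median of 0.65. The other 9853 genes had a median of 0.03, with 22.2% above and 16.2% below 0. Both enriched genes above 0, Gm21663 and Misp, were at under 2 CPM in every pulldown. Not one enriched gene was among the 1187 genes that rose only in the pulldown, and 3 depleted genes were among the 628 that fell only there: Fth1, Pwwp2a and Elp6.

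The interaction ran with transcript length as well. In the quintile of genes with the shortest exon sequence (up to 2421 bases) the median interaction was -0.54, with 3.68% of genes above and 35.2% below 0. In the quintile with the longest (from 7523 bases) it was 0.35, with 47.8% above and 5.53% below 0. Within the enriched genes the shortest quintile had a median of -0.97 and the longest -0.38, so the order by length held inside the enrichment class. When a smooth trend in length was removed from each library, 2157 genes were above (15.9%) and 2446 below 0 (18.0%), and 1853 of the 2953 genes above and 1723 of the 2486 below kept their call and direction. Among genes named below, removing the trend ended the calls of Amd1, Atf4, Atp6v1f, Clpp, Dnajb1, Elp6, Gng11, Irs2, Irs4, Ppp1r1b, Psmb9, Ptges3, Timm23 and Vcan and turned the sign of Insr. Leaving out at least 1 pool ended the calls of Amd1, Atf4, Atp6v0e, Dnajb1, Elp6, Gm21663, Insr, Irs2, Irs4, Misp, Nmur2, Ppp1r15a, Ppp1r1b, Psmb9, Ptges3, Sat1 and Timm23.

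**Figure D2:**
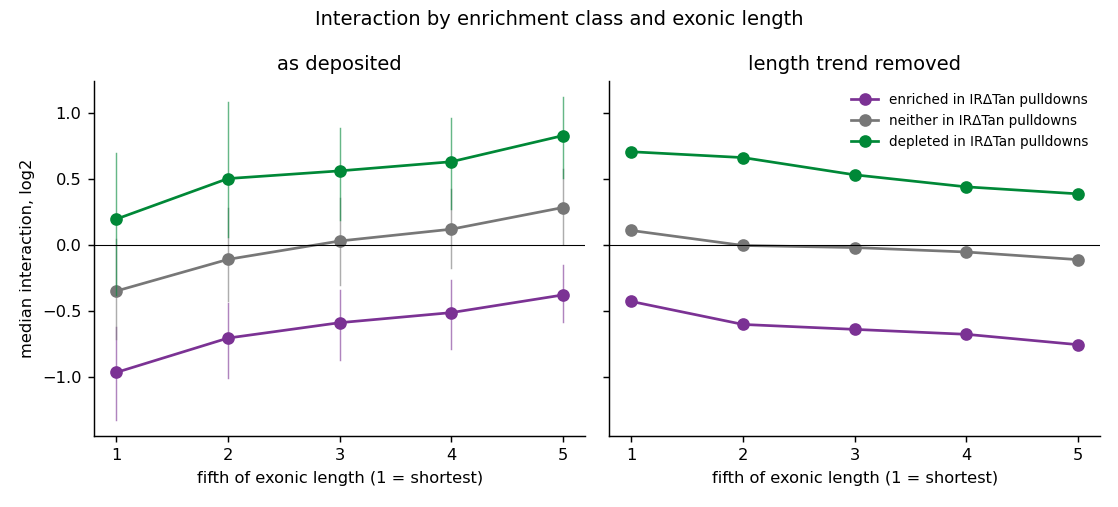
Median log2 interaction by quintile of exon length (1 is the shortest), 1 line for each enrichment class in IRΔTan pulldowns, as deposited on the left with lines over the quartiles of genes, and with the length trend removed on the right. On the left the enriched genes lie between -0.97 and -0.38 and the depleted genes between 0.20 and 0.83, both higher in longer genes.

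The largest rise on HFD among the genes named as confined to the pulldown was that of Sptan1. Sptan1, non-erythroid alpha-spectrin (chr2:29965560-30031451, GRCm38, plus strand), was at 798, 1541, 862 and 874 CPM in HFD pulldowns, against 182, 146 and 144 CPM in NCD pulldowns. In the inputs it was at 484, 522, 529 and 527 CPM on HFD and 512, 515 and 514 CPM on NCD. Every HFD pulldown was above every NCD pulldown, the highest value belonging to HFD pool 2, and the inputs lay close together. The pulldown level was 6.48-fold higher on HFD and the interaction was 2.69 ± 0.25 (SE; adjusted P = 3.08e-05), with an input interval of -0.38 to 0.38.

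Neurofilaments, the intermediate filaments of axons, moved likewise. Nefh, the heavy subunit, was at 93.6, 163, 112 and 115 CPM in HFD pulldowns, against 40.2, 25.2 and 38.0 CPM in NCD pulldowns. Its inputs were at 106 to 112 CPM on HFD and 114 to 127 CPM on NCD. The rule that named these genes required pulldowns of the diets that did not overlap, which held for 45.5% of all genes tested. The interaction was 1.96 ± 0.23 for Nefh and 1.94 ± 0.22 for Nefm, the medium subunit (adjusted P = 7.23e-05 and 5.90e-05). Both passed without each pool, which that rule required too. Nefh met the bound on the input in 2 of these 7 fits and Nefm in 4, against 7 for Sptan1.

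Genes of myosins, tubulin and other proteins were also named in this class. Myh10, a heavy chain of non-muscle myosin, had 339, 561, 458 and 413 CPM in HFD pulldowns against 129, 118 and 134 CPM in NCD pulldowns, with an interaction of 1.72 ± 0.17 (adjusted P = 3.08e-05). Mical3, an enzyme that oxidises actin, had an interaction of 1.68 ± 0.20, Myo5a, a vesicle-carrying myosin, 1.55 ± 0.20, and Map1a, a microtubule-associated protein, 1.53 ± 0.19. Tubb4a, a beta-tubulin, reached 1764 to 3230 CPM in HFD pulldowns against 535 to 955 CPM in NCD pulldowns, with inputs of 1844 to 2088 CPM on HFD and 1788 to 1958 CPM on NCD. Prkcb, a protein kinase C, and Smc1a, a subunit of the cohesin ring, completed the 10 genes the naming rule gave, with interactions of 1.60 ± 0.29 and 1.55 ± 0.18. Myh10 and Mical3 kept the class in all 7 fits without a pool, Map1a in 5, and Myo5a, Tubb4a and Prkcb in 3.

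All 15 genes of the list of spectrins, ankyrins and neurofilaments had an interaction above 0, beside 21.8% of all genes, and 10 of them rose only in the pulldown. The median interaction of the list was 1.43, against -0.02 over all genes. Of 19 tubulin genes 9 were above 0 and none below. Of the 10 genes named in the class 9 had been depleted at least 2-fold in the IRΔTan pulldowns, with log2 enrichments of -1.12 to -1.93. Smc1a, at -0.04, had not, and it met the bound on the input in 2 of the 7 fits. In these pulldowns the neuron markers were higher on HFD too, as given above, and 16 of 19 had an interaction above 0 with none below, although Nefl, Nefm and Nefh are in both lists. The part of neuronal RNA in the change of these genes was not tested.

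**Figure D3:**
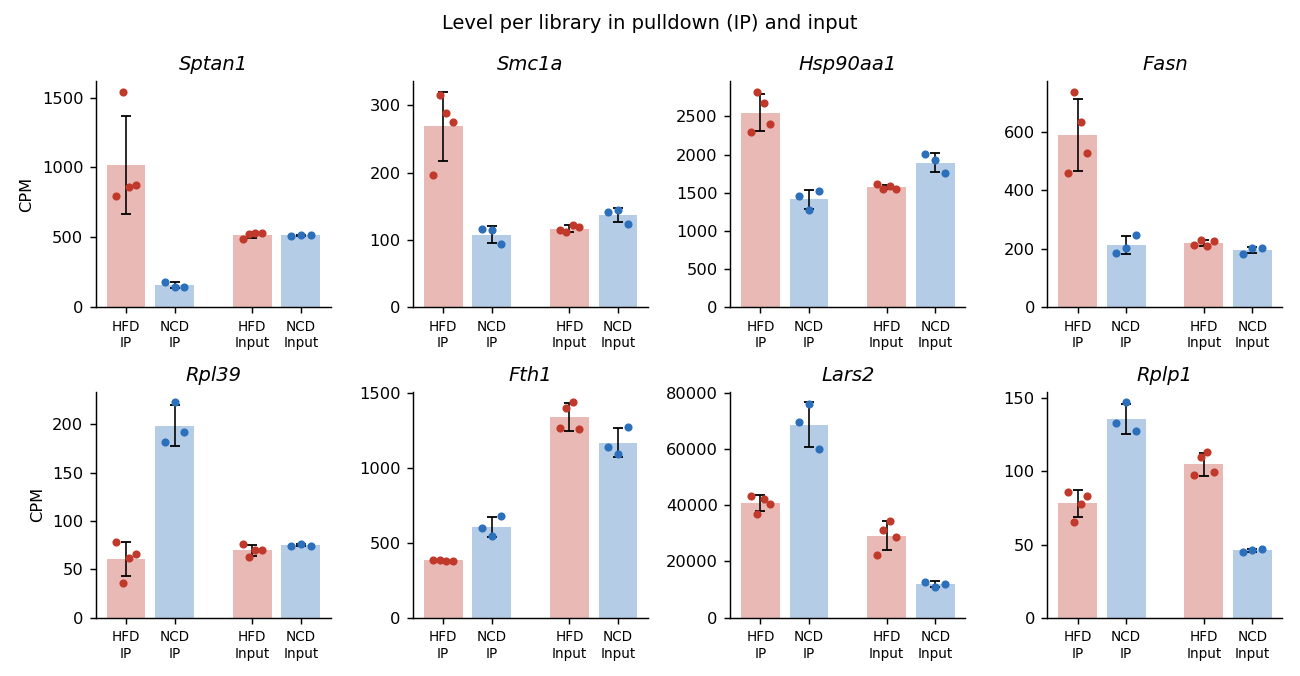
CPM of 8 genes on linear axes that start at 0, with HFD and NCD pulldowns (IP) left of HFD and NCD inputs; bars are means, error bars SD and points single libraries. Sptan1 separates the diets in the pulldown alone, and for Lars2 and Rplp1 HFD is the lower in pulldowns and the higher in inputs.

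Genes that fell on HFD in the pulldown alone had a median exon length of 3617 bases, against 6702 bases for those that rose. Rpl39, a small protein of the large ribosomal subunit (chrX:37082520-37085402, GRCm38, minus strand), was at 78.8, 36.3, 61.6 and 65.5 CPM in HFD pulldowns, against 182, 223 and 192 CPM in NCD pulldowns. Its inputs were at 63.0 to 76.7 CPM on HFD and 74.3 to 76.7 CPM on NCD. The NCD pulldowns were all higher, the lowest value of all belonged to HFD pool 2, and the inputs overlapped. The interaction was -1.61 ± 0.25 (adjusted P = 0.000313) and passed without each pool, as the naming rule required, but the class held in 1 of the 7 fits.

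Churc1 had 43.3, 29.6, 34.2 and 40.1 CPM in HFD pulldowns against 90.8, 83.0 and 85.3 CPM in NCD pulldowns, with inputs of 51.2 to 56.7 CPM on HFD and 44.0 to 52.9 CPM on NCD. Its interaction was -1.37 ± 0.16 (adjusted P = 5.30e-05), and it kept its class in all 7 fits without a pool. Pgap2, which remodels the lipid of GPI anchors, had an interaction of -1.34 ± 0.21, Rnf5, a ubiquitin ligase of the endoplasmic reticulum, -1.22 ± 0.11, Phpt1, a phosphohistidine phosphatase, -1.22 ± 0.15, and Gng11, a G-protein gamma subunit, -1.21 ± 0.16. Oaz1, the antizyme that targets ornithine decarboxylase for degradation, fell to 274 to 338 CPM in HFD pulldowns, against 512 to 620 CPM in NCD pulldowns (-1.20 ± 0.13). The remaining named genes were Lrrc51, 6330403K07Rik and Aamdc, with interactions of -1.22, -1.22 and -1.19. Without single pools Phpt1, Gng11 and Lrrc51 kept the class in 2 of the 7 fits, 6330403K07Rik in 4 and Aamdc in 5. Pgap2, Rnf5 and Oaz1 kept it in all 7. With the length trend removed Gng11 no longer passed (-0.38, adjusted P = 0.0936).

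Of 13 genes of polyamine metabolism 5 were below 0 and none above, beside 18.3% and 21.8% of all genes. Beside Oaz1 these were Odc1, the first enzyme of polyamine synthesis, at -0.82, Sat1, which starts polyamine breakdown, at -1.49, Oaz2 at -0.48 and Amd1 at -0.34. The list therefore held both synthetic and degrading enzymes. Without single pools the highest adjusted P was 0.0371 for Oaz2 and 0.0555 for Sat1, and the call of Amd1 ended without at least 1 pool. With the length trend removed 4 of the 13 genes were below and 2 above 0.

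Genes of the cytosolic ribosome fell in the pulldown, and many of them rose in the input. Of 77 ribosomal protein genes tested, 75 had an interaction below 0, beside 18.3% of all genes, and none above; 46 fell in the pulldown and rose in the input, and 11 fell only in the pulldown. The 2 without a call were Rpl5, at -0.38, and Rps12, with means of 1.01 CPM in HFD pulldowns and 1.95 CPM in NCD pulldowns. Their median interaction was -1.25, and 71 were below 0 in the fit with the length trend removed. Rpl10a, at -1.06, was among those that fell only in the pulldown. It codes for the protein that the transgene tags, and the part of transgene reads in its value was not tested.

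Rps14, a protein of the small subunit, was at 50.6, 36.1, 39.1 and 42.7 CPM in HFD pulldowns, against 124, 133 and 100.3 CPM in NCD pulldowns. In the inputs it was at 49.2, 57.4, 55.4 and 49.2 CPM on HFD and 35.9, 34.0 and 36.2 CPM on NCD. The diets did not overlap in either fraction, and their order was reversed between the fractions. The interaction was -2.08 ± 0.16 (adjusted P = 7.93e-06).

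Rplp1, a protein of the ribosomal stalk, had 85.9, 65.3, 77.6 and 83.4 CPM in HFD pulldowns against 133, 147 and 127 CPM in NCD pulldowns, and 97.3 to 113 CPM in HFD inputs against 44.9 to 47.0 CPM in NCD inputs (-1.99 ± 0.13, adjusted P = 1.37e-06). Rps21 and Rpl41 had interactions of -2.19 ± 0.22 and -2.03 ± 0.24. Ribosomal protein genes have many near-identical processed pseudogenes among which the estimated counts could be split, so the value of any single member is uncertain.

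Lars2, the mitochondrial leucyl-tRNA synthetase (chr9:123366927-123462666, GRCm38, plus strand), was among the most abundant genes of the table. It was at 43160, 36850, 42220 and 40450 CPM in HFD pulldowns, against 69620, 75910 and 60110 CPM in NCD pulldowns. In the inputs it was at 22130, 31120, 34490 and 28760 CPM on HFD and 12850, 11020 and 12110 CPM on NCD. The order of the diets was reversed between the fractions with no overlap in either (interaction -2.03 ± 0.19, adjusted P = 2.19e-05). CT010467.1, annotated as ribosomal RNA and therefore not among the genes tested, moved with it, measured as a percent of all counts of a library. It took 8.11% to 8.91% in HFD pulldowns against 15.5% to 16.3% in NCD pulldowns, and 3.81% to 5.50% in HFD inputs against 1.37% to 1.52% in NCD inputs. The part of residual ribosomal RNA in the Lars2 value and in the opposite changes was not tested.

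Nuclear genes of oxidative phosphorylation, the enzyme complexes that make ATP in mitochondria, split within the complexes. Of 81 tested, 60 had an interaction below 0 and 12 above, and 28 fell in the pulldown while rising in the input. Uqcr11, a small subunit of complex III, had 82.0, 53.6, 55.4 and 75.2 CPM in HFD pulldowns against 124, 116 and 109.7 CPM in NCD pulldowns, and 64.2 to 70.2 CPM in HFD inputs against 36.3 to 44.0 CPM in NCD inputs. Its interaction was -1.56 ± 0.18 (adjusted P = 5.36e-05), beside -1.35 ± 0.16 for Atp5g2, a subunit of the rotor of ATP synthase, and -1.15 ± 0.13 for Cox7a2l, a factor that joins complexes III and IV. The 12 above 0 included catalytic and core subunits, named here after their values were seen: Ndufs1 at 1.45, Sdha at 0.76, Uqcrc2 at 0.90, Uqcrc1 at 0.86, Atp5b at 1.03 and Atp5a1 at 0.86. With the length trend removed 33 genes were below and 16 above 0.

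Mitochondrial ribosomal proteins went the same way in 45 of 78 genes, with 3 above 0, and Mrpl12 and Mrpl52 were opposite in the fractions at -1.14 and -1.48. With the length trend removed 25 were below and 7 above. All 13 protein-coding genes of the mitochondrial genome had an interaction below 0 although their median log2 enrichment in IRΔTan pulldowns was -4.27. Together they took 0.0502% to 0.129% of all counts in HFD pulldowns and 0.256% to 0.455% in NCD pulldowns. In inputs they took 3.07% to 4.7% on HFD and 4.07% to 4.81% on NCD. The part of carry-over RNA in their pulldown values was not tested. mt-Nd1, a subunit of complex I, had 139, 151, 54.8 and 111 CPM in HFD pulldowns against 647, 459 and 359 CPM in NCD pulldowns, with 5604 to 9282 CPM in HFD inputs and 5553 to 6564 CPM in NCD inputs (-2.36 ± 0.42, adjusted P = 0.00111). The pulldowns did not overlap and the inputs did. Only mt-Nd1 and mt-Nd2 of the 13 passed with the length trend removed.

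Genes that rose in the pulldown and fell in the input had a median input change of -0.36, against 0.49 for the genes that did the reverse. Their median exon lengths were 8349.5 and 1918 bases. With the length trend removed 34 of the 142 that rose in the pulldown and 146 of the 304 that fell there kept their class. Serpini1, neuroserpin, a protease inhibitor that neurons secrete (chr3:75557547-75643495, GRCm38, plus strand), was at 66.8, 93.7, 92.2 and 91.4 CPM in HFD pulldowns, against 44.2, 31.0 and 46.5 CPM in NCD pulldowns. In the inputs it was at 106 to 125 CPM on HFD and 153 to 172 CPM on NCD. The diets did not overlap in either fraction, with HFD the higher in pulldowns and the lower in inputs. The interaction was 1.60 ± 0.19 (adjusted P = 6.59e-05).

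Kcnf1, a modulatory subunit of voltage-gated potassium channels, had an interaction of 1.42 ± 0.21, Trank1 of 1.35 ± 0.17, Pcdhb17, a clustered protocadherin of cell contacts, of 1.35 ± 0.18, and Smc2, a condensin subunit, of 1.34 ± 0.24. Pcdhb17 has close paralogues in its cluster, so its value is uncertain. Of these 5 genes, only Trank1 kept its class in all 7 fits. The AMPA receptor subunit Gria2 belonged here too, at 1.12 ± 0.14, with 239 to 333 CPM in HFD pulldowns against 171 to 195 CPM in NCD pulldowns, and 352 to 390 CPM in HFD inputs against 476 to 516 CPM in NCD inputs. Of 34 genes for GABA and glutamate receptors 23 were above 0 and none below. Voltage-gated and potassium channels had 41 of 79 above and 1 below, and synaptic vesicle genes 27 of 50 above and 2 below.

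**Figure D4:**
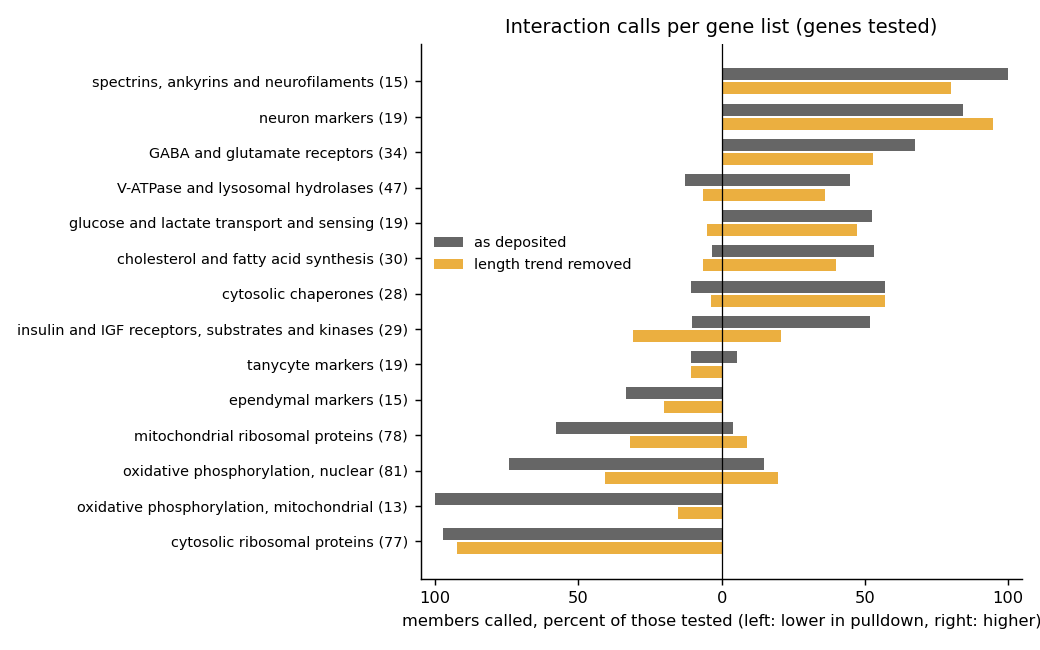
Share of each list's tested genes (number in brackets) with an interaction above 0, to the right, or below 0, to the left, at an adjusted P below 0.05, as deposited in grey and with the length trend removed in orange. Cytosolic ribosomal proteins (75 of 77 below 0) and spectrins, ankyrins and neurofilaments (15 of 15 above 0) stand at opposite ends.

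Fth1, Pwwp2a and Elp6, the 3 depleted genes among those that fell only in the pulldown, are named for that reason. They were among the 28 depleted genes below 0. Fth1, the heavy chain of ferritin, which stores iron (chr19:9980598-9985098, GRCm38, plus strand), was at 382, 386, 379 and 380 CPM in HFD pulldowns, against 595, 544 and 675 CPM in NCD pulldowns. The 4 HFD pools, HFD pool 2 included, lay within 7 CPM of each other. Its inputs were at 1259 to 1435 CPM on HFD and 1090 to 1273 CPM on NCD, which overlapped, and its log2 enrichment in IRΔTan mice was -1.21. The interaction was -0.86 ± 0.12 (adjusted P = 0.000141) and -0.82 with the length trend removed. Pwwp2a, a chromatin-binding protein, had -0.57 ± 0.12, and Elp6, a subunit of the elongator complex, -0.56 ± 0.20, with pulldowns that overlapped and a highest adjusted P of 0.125 without single pools.

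Chaperones, which fold newly made and damaged proteins, include Hsp90aa1, Dnaja1 and Hsph1, which the study names. Of 28 cytosolic chaperone genes 16 had an interaction above 0 and 3 below, and 10 rose only in the pulldown. Hsp90aa1, the inducible form of Hsp90 (chr12:110690605-110702728, GRCm38, minus strand), was at 2302, 2823, 2681 and 2397 CPM in HFD pulldowns, against 1453, 1275 and 1516 CPM in NCD pulldowns. In the inputs it was at 1609, 1542, 1593 and 1552 CPM on HFD and 2001, 1924 and 1756 CPM on NCD. The HFD pulldowns were all the higher and the HFD inputs all the lower, with an input interval of -0.46 to -0.08, and the interaction was 1.12 ± 0.13 (adjusted P = 5.30e-05).

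Dnaja1, an Hsp40 that delivers clients to Hsp70, was at 1032, 1209, 1260 and 1051 CPM in HFD pulldowns, against 707, 756 and 711 CPM in NCD pulldowns (0.83 ± 0.13, adjusted P = 0.000241). Hsph1, an Hsp110 that exchanges nucleotides on Hsp70, was at 911, 1062, 1088 and 955 CPM in HFD pulldowns, against 617, 631 and 616 CPM in NCD pulldowns (0.73 ± 0.11, adjusted P = 0.000231). Hspd1, the Hsp60 of the mitochondrial matrix, was at 327, 436, 422 and 357 CPM in HFD pulldowns, against 268, 274 and 251 CPM in NCD pulldowns (0.74 ± 0.13, adjusted P = 0.000573). The pulldowns of the diets did not overlap for these 3 genes, and all 3 met the rule for the confined class. Without single pools Hspd1 kept the class in 5 of the 7 fits, and Dnaja1 and Hsph1 in all 7. With the length trend removed Hspd1 and Hsph1 kept it, and Dnaja1 left it. The inputs overlapped for Dnaja1 and Hsph1, and for Hspd1 the HFD inputs were all the lower. Their log2 enrichments in IRΔTan pulldowns were -0.28, -0.05 and -0.06. Hspa4, a further Hsp110, and Hspa8, the constitutive Hsp70, were at 1.11 ± 0.15 and 0.91. The chaperonin subunits Cct8, Cct3 and Cct7, at 0.91, 0.75 and 0.58, rose only in the pulldown as well. The genes below 0 were Dnajb1, Bag3 and Ptges3, at -0.66, -0.86 and -0.53, and the inducible Hsp70 genes Hspa1a and Hspa1b, at 0.36 and 0.06, did not pass.

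Heat shock factor 1 binds inverted repeats of the heat shock element, and the promoters of the chaperones were searched for its 8-base core, either GAANNTTC or TTCNNGAA, both of which read the same on either strand. The window ran from 250 bases before to 50 after each start site (RefSeq sequences, GRCm38.p6). A match was present in 13 of 24 chaperone genes with a window (54.2%), against 1487 of 10781 tested genes (13.8%) and 4587 of all 27025 genes (17.0%). It was present in 5 of the 13 with an interaction above 0 and in 8 of the 11 others. The elements of 3 chaperones named by the study are shown with 20 bases on either side, the core in capitals, on the strand of the gene. They lie at chr4:40722324-40722371 on the plus strand for Dnaja1, at chr1:55088039-55088096 on the minus strand for Hspd1 and at chr5:149636342-149636389 on the minus strand for Hsph1, and Hspd1 has 3 overlapping cores.
Dnaja1: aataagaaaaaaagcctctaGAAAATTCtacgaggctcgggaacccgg
Hspd1: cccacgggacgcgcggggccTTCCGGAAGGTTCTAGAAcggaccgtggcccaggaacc
Hsph1: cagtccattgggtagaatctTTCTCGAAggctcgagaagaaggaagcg

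Of 25 genes of mitochondrial import and protein quality control 9 were above and 6 below 0, beside 21.8% and 18.3% of all genes. Afg3l2, an inner membrane protease, Hspa9, the mitochondrial Hsp70, and Trap1, a mitochondrial Hsp90, met the rule for a rise only in the pulldown at 0.95, 0.80 and 0.78. The inputs of Afg3l2 were all lower on HFD, at 59 to 62.6 CPM against 70.3 to 74.4 CPM on NCD. Its input interval was -0.45 to -0.07, and it left the class with the length trend removed. Hspe1, the Hsp10 partner of Hspd1, was at -0.98, the translocase subunits Timm23 and Timm17b at -0.97 and -0.89, and the protease subunit Clpp, opposite in the fractions, at -0.79. Timm50, a translocase subunit named by the study, was at 12.5, 10.8, 10.7 and 10.6 CPM in HFD pulldowns, against 9.18, 7.76 and 8.57 CPM in NCD pulldowns, with inputs of 7.75 to 9.19 CPM on HFD and 7.76 to 8.96 CPM on NCD. The pulldowns did not overlap, yet the interaction of 0.34 ± 0.17 did not pass (adjusted P = 0.128).

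Among genes of the endoplasmic reticulum stress response 7 of 23 were above and 3 below 0, beside 21.8% and 18.3% of all genes. Hspa5, the chaperone BiP, was at 285, 343, 486 and 371 CPM in HFD pulldowns, against 198, 197 and 174 CPM in NCD pulldowns, with inputs of 235 to 285 CPM on HFD and 275 to 350 CPM on NCD. The HFD pulldowns were all the higher (1.28 ± 0.20, adjusted P = 0.000229), and the lumenal chaperone Hsp90b1 was at 0.75 ± 0.16. Asns, asparagine synthetase, met the rule for a rise only in the pulldown at 1.43 ± 0.18, and kept this class in 4 of the 7 fits without a pool. Its inputs were all lower on HFD, at 51.8 to 56.3 CPM against 57.3 to 65.1 CPM on NCD. It left the class with the length trend removed. The transcription factors of the integrated stress response did the reverse, with Ddit3 (CHOP) below 0 and Atf4 at -0.81, and their feedback phosphatase subunit Ppp1r15a was at -1.03.

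Enzymes of cholesterol and fatty acid synthesis were mostly above 0, 16 of 30 against 1 below, and 10 rose only in the pulldown. Fasn, fatty acid synthase, was at 459, 737, 633 and 527 CPM in HFD pulldowns, against 186, 202 and 246 CPM in NCD pulldowns, with inputs of 208 to 230 CPM on HFD and 183 to 202 CPM on NCD. The HFD pulldowns were all at least 459 CPM, above every other library (1.31 ± 0.19, adjusted P = 0.000149), and the gene was not enriched or depleted in IRΔTan pulldowns (0.18). Acly, which supplies acetyl-CoA, was at 154, 230, 208 and 200.2 CPM in HFD pulldowns, against 86.4, 89.1 and 93.0 CPM in NCD pulldowns (1.15 ± 0.14, adjusted P = 6.80e-05). Acaca, acetyl-CoA carboxylase, was at 0.98 ± 0.16, with inputs all lower on HFD, at 89.7 to 99.8 CPM against 106 to 116 CPM on NCD. With the length trend removed Acly kept the confined class, and Fasn and Acaca left it. Acss2, Fdps and Hmgcs1 also rose only in the pulldown, at 1.00, 0.83 and 0.79. Without single pools Fasn kept the class in 4 of the 7 fits and Acaca and Acss2 in 3, against 7 for Acly, Fdps and Hmgcs1. The regulators Srebf1 and Srebf2, at -0.57 and 0.10, did not pass.

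Genes of glucose use gave 10 of 19 above and none below 0. Pkm, pyruvate kinase, had 742 to 1051 CPM in HFD pulldowns against 382 to 454 CPM in NCD pulldowns, with inputs of 595 to 634 CPM on HFD and 554 to 585 CPM on NCD (0.98 ± 0.14). The phosphofructokinases Pfkp, Pfkm and Pfkl were at 1.41, 1.26 and 0.70, the hexokinase Hk1 at 0.79, and Abcc8, the sulfonylurea receptor of the ATP-sensitive potassium channel, at 1.33. The glucose transporter Slc2a1, at -0.28, did not pass. Lysosomal genes had 21 of 47 above and 6 below. Subunits of the proton pump were found on both sides, with Atp6v1a at 1.27 and Atp6v1h at 1.05, and Atp6v0e at -1.01 and Atp6v1f at -0.92.

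Antioxidant genes went the other way, with 12 of 31 below and 3 above 0. Sod1, cytosolic superoxide dismutase, was at 749, 582, 662 and 696 CPM in HFD pulldowns, against 1090, 977 and 887 CPM in NCD pulldowns, and at 558 to 646 CPM in HFD inputs against 461 to 474 CPM in NCD inputs (-0.90 ± 0.13, adjusted P = 0.000175). The diets did not overlap in either fraction, in opposite order. The glutathione peroxidases Gpx1 and Gpx4 were at -1.41 ± 0.26 and -1.26 ± 0.19. With the length trend removed 9 were below and 8 above 0. Ucp2, a mitochondrial anion carrier, fell to 158 to 266 CPM in HFD pulldowns, against 351 to 373 CPM in NCD pulldowns (-0.98 ± 0.20).

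Genes of insulin signalling had 15 of 29 above and 3 below 0, and this balance turned to 6 above and 9 below when the length trend was removed. Grb10, an adaptor that binds and inhibits the insulin receptor, was at 215, 283, 270 and 242 CPM in HFD pulldowns, against 129, 137 and 144 CPM in NCD pulldowns, with inputs of 173 to 196 CPM on HFD and 194 to 210 CPM on NCD. The pulldowns did not overlap (0.99 ± 0.13, adjusted P = 8.46e-05, and 0.64 with the length trend removed). Mtor and Igf2r were at 1.26 ± 0.18 and 1.08 ± 0.16, and Irs4 and Irs2, insulin receptor substrates, at 0.53 ± 0.18 and 0.50. Akt2 and Foxo1, a kinase and a transcription factor downstream of the receptor, fell only in the pulldown at -0.99 and -0.55. Without single pools Foxo1 kept the class in 5 of the 7 fits and Akt2 in all 7.

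Insr itself, the insulin receptor, was at 54.3, 62.9, 61.3 and 62.2 CPM in HFD pulldowns, against 51.9, 53.3 and 50.3 CPM in NCD pulldowns, and at 73.6 to 85.1 CPM in HFD inputs against 86.5 to 89.1 CPM in NCD inputs. The difference was small and the diets did not overlap in either fraction. The interaction of 0.39 ± 0.10 passed (adjusted P = 0.00718), reached an adjusted P of 0.0841 without single pools and was -0.12 with the length trend removed (adjusted P = 0.333). The neuropeptide receptors Nmbr and Nmur2, also named by the study, had 1.18 ± 0.27 and 1.18 ± 0.45 (adjusted P = 0.00258 and 0.0499), from 6.14 to 10.2 CPM of Nmbr and 1.92 to 4.23 CPM of Nmur2 in HFD pulldowns, against 3.45 to 4.51 CPM and 1.31 to 2.81 CPM in NCD pulldowns. The study chose its genes on these libraries, so that 8 of its 9 were above 0 is not independent evidence of a direction.

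Of 19 tanycyte markers tested, 2 were below and 1 above 0 in the interaction, beside 18.3% and 21.8% of all genes. By the test of diet in the pulldown 9 fell and 1 rose, beside 26.4% and 25.7% of all genes. Lhx2, a transcription factor of tanycyte identity, was at 90.8, 53.9, 55.7 and 86.1 CPM in HFD pulldowns, against 127, 129 and 123 CPM in NCD pulldowns, with an input change of 0.30 (-1.12 ± 0.22, adjusted P = 0.00124). The HFD pulldowns were all lower, and pools 2 and 3 lowest. Ppp1r1b, the phosphatase regulator DARPP-32, was at -0.98 ± 0.33, and Vcan, a matrix proteoglycan, at 0.89 ± 0.21.

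Dio2, the enzyme that activates thyroid hormone and whose promoter drives Cre here, fell in both fractions. It was at 91.4, 59.1, 77.7 and 106 CPM in HFD pulldowns, against 235, 204 and 184 CPM in NCD pulldowns, and at 36.7, 31.2, 31.4 and 39.1 CPM in HFD inputs against 61.0, 51.1 and 68.3 CPM in NCD inputs. The diets did not overlap in either fraction. The change was -1.32 in the pulldown and -0.80 in the input (95% interval -1.15 to -0.44), and the interaction of -0.52 ± 0.23 did not pass (adjusted P = 0.0890). The part of a lower activity of the driving promoter in the weaker enrichment of HFD pulldowns was not tested.

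Ependymal cells line the ventricle beside tanycytes and carry motile cilia. Their markers had 5 of 15 below 0 and none above, and their summed level was 629 to 1090 CPM in HFD pulldowns against 1300 to 1600 CPM in NCD pulldowns, with 51.2 to 71.9 CPM in HFD inputs and 54.1 to 60.2 CPM in NCD inputs. Foxj1, the master regulator of motile cilia, was at 122 to 225 CPM in HFD pulldowns, against 283, 283 and 288 CPM in NCD pulldowns (-1.22 ± 0.26, adjusted P = 0.00219). All HFD pulldowns were lower. Motile cilium genes had 11 of 47 below and 1 above 0, a share below 0 near the 18.3% of all genes. Of 31 genes of the interferon response and MHC class I, 1 passed, Psmb9 at -1.91 ± 0.68 (adjusted P = 0.0451), with 35.5 to 144 CPM in HFD pulldowns against 238 to 352 CPM in NCD pulldowns.

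**Figure D5:**
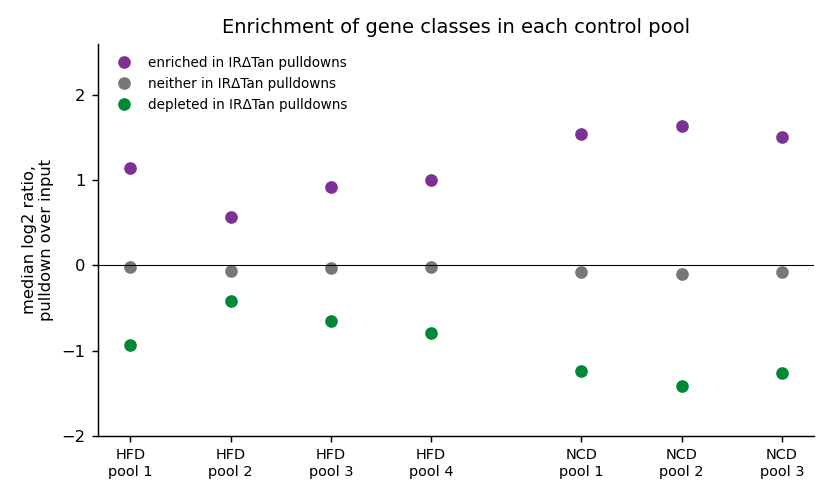
Median log2 ratio of pulldown to input in each pool for genes enriched, depleted or neither in IRΔTan pulldowns, HFD pools left of NCD pools. For enriched genes HFD pools lie at 0.57 to 1.14 and NCD pools at 1.51 to 1.64, and for depleted genes at -0.94 to -0.42 and -1.42 to -1.24.

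Genes with no enrichment in IRΔTan pulldowns (within 0.25 of 0 on the log2 scale) also met the rule for the confined class, and some are given here, chosen after their values were seen. Tubb2a, a beta-tubulin with an enrichment of 0.00, was at 549, 856, 766 and 595 CPM in HFD pulldowns, against 288, 244 and 332 CPM in NCD pulldowns, with inputs of 402 to 411 CPM on HFD and 349 to 368 CPM on NCD (1.07 ± 0.19). Ass1, which joins citrulline to aspartate, was at 149 to 203 CPM in HFD pulldowns against 80.5 to 89.7 CPM in NCD pulldowns (0.84 ± 0.14), and Acot7, a brain acyl-CoA thioesterase, at 319 to 396 CPM against 148 to 199 CPM (0.81 ± 0.13). Among genes that fell, Pgap2, with an enrichment of -0.01, was at 8.27, 7.28, 7.35 and 8.11 CPM in HFD pulldowns, against 15.9, 24.5 and 15.7 CPM in NCD pulldowns, with inputs of 12.2 to 13.6 CPM on HFD and 10.9 to 13.1 CPM on NCD. Dcun1d3 and Ube2d2a, both of ubiquitin-like protein conjugation, were at -0.75 ± 0.13 and -0.56 ± 0.13, and Snf8, a subunit of the endosomal ESCRT machinery, at -1.01 ± 0.13. For each of these genes the pulldowns of the diets did not overlap, which was a condition of choosing them. The inputs of Tubb2a and Acot7 did not overlap either, with HFD the higher. Those of Acot7 were at 251 to 278.5 CPM on HFD and 217.2 to 228.1 CPM on NCD, with an input interval of 0.05 to 0.46. Without single pools Tubb2a kept the class in 2 of the 7 fits, Acot7 in 4, Ass1 in 5 and Ube2d2a in 6.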

How the data were processed

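Ribosome-bound RNA and input RNA of pooled mediobasal hypothalamus were sequenced after pre-amplification with poly(T) and random primers. The deposited table holds estimated counts per gene, made by the authors with STAR and Salmon 0.14.1 on GRCm38.p6 according to the submitters' processing notes. They were rounded to whole numbers, since 28% of values were not whole. The authors also deposited tables of their own log2 fold changes and adjusted p-values from DESeq2 1.30.0, whose values were not used. One of these tables gave the gene IDs to test (protein coding and above a level the authors set), of which 13721 were in the count table and 13568 passed filterByExpr with a minimum count of 10. No column of per-sample values was left unmapped (0).

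Counts were scaled by TMM and fitted with edgeR 4.0.16 (quasi-likelihood, robust; R 4.3.3) with a mean for each diet and fraction, and p-values were adjusted by Benjamini–Hochberg over all genes tested. Enrichment was fitted on the 6 IRΔTan libraries alone, with a log2 threshold of 1. Exon lengths were taken from the annotation for 44118 matched IDs. Genes were named if they had the largest interactions of their class (10 confined, 5 opposite in each direction) with at least 10 CPM, diets that did not overlap in the pulldown and a call without each pool, or the smallest P of a gene list (up to 4), or if the study names them. List members named beside these illustrate the counts and were chosen after their values were seen. The members and the 50 lists were chosen with earlier results of these data known. Pulldown and input of a pool share a number in the labels and were taken as 1 tissue sample. Their deviations from the group means correlated at 0.206 to 0.485 in all 7 pools. In 5 of the 7 the pulldown correlated best with the input of its own number, and in HFD pools 1 and 2 it did not. Each library is a pool, so p-values measure the spread between libraries of pooled tissue. The main fit had no term for the pool, so it treated pulldown and input of a pool as independent. It also used 1 spread per gene for both fractions. Counts with the pool as a block are given below. Alternatives covered scaling, filters, DESeq2 1.42.0, limma 3.58.1, the pool as a replicate block, transcript length, thinned counts, the bounds and leaving out each pool. The fit was tested on simulated data. Some genes are not reported here.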

Additional observations from a re-analysis of the deposited data

Results flagged for a closer look

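The diet change differed between pulldown and input for 5439 genes, which is the comparison described above. In 11 of 260 groups of 4 HFD libraries, over the genes with values given, 1 library lay far from the others, a gap that chance gives in about 1 in 20 groups. In HFD pulldowns Sptan1 was at 1540 CPM in pool 2, with the nearest pool at 874 CPM, and Mical3 at 87.2 CPM in pool 2, with the nearest at 56.4 CPM. HFD pool 2 also had the weakest enrichment. Pool 1 was low for Serpini1, at 66.8 CPM with the nearest at 91.4 CPM, and for Kcnf1, at 12.2 CPM with the nearest at 19.8 CPM, and high for Timm50, at 12.5 CPM with the nearest at 10.8 CPM. In HFD inputs pool 1 was low for Sptan1, at 484 CPM with the nearest at 522 CPM, and for Grb10, at 173 CPM with the nearest at 194 CPM. Pool 3 was high for Dnajb1, at 283 CPM with the nearest at 251 CPM, and for Atp6v1f, at 44.1 CPM with the nearest at 42.6 CPM. Pool 4 was low for Lhx2, at 13.3 CPM with the nearest at 15.3 CPM, and high for Uqcrc2, at 121 CPM with the nearest at 116 CPM.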

How the results depend on the processing

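With each pool as a replicate block the interaction was called for 5737 genes, and for 5538 by limma on 1 ratio of pulldown to input per pool. With a variance per group in limma voom the pulldown change was called for 5519 genes and the input change for 4729, and 1227 were opposite. With the fractions fitted alone these counts were 5232, 4245 and 1088. With the length trend removed 252 genes were opposite, of which 180 were among the 446 of the main fit. A bound of 0.3 left 491 genes confined to the pulldown and 39 to the input, and an absolute interaction of at least 1 left 1265 calls. A threshold of 0.5 gave 6904 genes enriched or depleted in IRΔTan mice. Leaving out each pool gave 4271 to 5693 interaction calls, 6122 to 7354 calls in the pulldown, 632 to 1509 in the input, 1417 to 2094 genes confined to the pulldown, 81 to 120 confined to the input and 145 to 552 opposite. The opposite genes numbered 194 without HFD pool 3, 248 without HFD pool 4, 159 without NCD pool 1, 156 without NCD pool 2 and 145 without NCD pool 3, and the input calls 755, 998, 843, 932 and 632 without those pools. Without NCD pool 3, 81 genes were confined to the input. With every counted gene fitted, 1580 genes rose and 450 fell in the pulldown alone. Removing the length trend turned the balance of genes above minus below 0 to 3 for proteasome subunits (10 and 7), -3 for insulin signalling (6 and 9) and -1 for chromatin remodellers (7 and 8), and Insr to -0.1217. For tanycyte markers this balance lay between -3 and 1 without single pools, with 1 without HFD pool 1 and without NCD pool 1. Signs turned for genes that had not passed: Srebf2 was at -0.009876 with library totals and -0.138 with the length trend removed, and Hspa1b at -0.03712 with library totals, -0.1866 with limma voom, -0.008156 with the replicate block and -0.1656 with the ratio per pool. Without single pools Hspa1b lay between -0.4693 and 0.3988, below 0 also without HFD pool 1 (-0.2274), and Hspa1a between -0.1076 and 0.8354. The causes were not tested.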

Other observations

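Lists not described above moved in the same fit as follows. Kinesins and dyneins of transport, the motors of axons, had 22 of 42 genes above and 3 below 0, and semaphorins, plexins and ephrins, which guide axons, 12 of 43 above and none below. Translation initiation and elongation factors had 11 of 66 above and 21 below. Proteasome subunits had 5 of 38 above and 11 below, and chromatin remodellers of the CHD, KMT2 and SWI/SNF families 23 of 41 above and 3 below. Of all genes tested 21.8% were above and 18.3% below 0. The median interactions of these lists were 0.39, 0.24, -0.07, -0.10 and 0.39, beside -0.02 over all genes tested.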
